A study of Mus musculus with 22 samples.

Results

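The integrin and laminin genes described here are the rows of the testes count table whose symbol begins with an integrin alpha subunit (*Itga*), an integrin beta subunit (*Itgb*) or a laminin chain (*Lama*, *Lamb*, *Lamc*) name, and they number 41 of the 17931 gene symbols in the table. They comprise 18 integrin alpha subunits, 9 integrin beta subunits, 11 laminin chains and 3 symbols, *Itgb1bp1*, *Itgb1bp2* and *Itgb3bp*, that the name pattern takes in although they encode integrin-binding proteins and no integrin. RNA was sequenced from whole testes of 3 wild-type (WT) males, described as verified fertile breeders, and 3 littermate males with a constitutive, whole-body deletion of *Mlx* (MLX KO), all untreated and 7 months old, in 3 littermate pairs. The null allele was made in 129S4 embryonic stem cells and lacks the exons encoding the bHLHLZ region, through which MLX, a transcription factor of the extended MYC network, dimerizes and binds DNA. Deletion was brought about with Meox2-Cre, which was bred out later. The methods mention independent lines from separate embryonic stem cell clones and do not say which one gave these testes.

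Laminins are heterotrimers of an alpha, a beta and a gamma chain that polymerize into the sheet on which a basement membrane is built, and integrins are alpha and beta heterodimers at the cell surface that link laminins, collagens, fibronectin or counter-receptors on other cells to the actin cytoskeleton. In the testis, the basement membrane of the seminiferous tubule is laid down by Sertoli and peritubular myoid cells, and Sertoli cells also hold elongating spermatids through an adhesion that includes the *Itga6* and *Itgb1* subunits and a laminin assembled from the *Lama3*, *Lamb3* and *Lamc3* chains. Integrins of the *Itgb2* group belong to leukocytes, which in the testis are mainly resident macrophages.

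The libraries held between 16674678 and 19742726 counts. Composition was adjusted with TMM factors of 0.943 to 0.961 in WT and 1.02 to 1.07 in MLX KO, and abundance is given as CPM, counts scaled by the adjusted library size. Log2 fold changes (LFC) are MLX KO over WT from edgeR's quasi-likelihood fit over the 14640 genes with enough counts to test, with Benjamini-Hochberg adjusted p-values over all of them and a threshold of 0.05. *Mlx* had 128, 96 and 98 counts in the WT libraries and 94, 109 and 102 counts in the MLX KO libraries (LFC -0.18, SE 0.14, adjusted p = 0.326). The targeting left some exons in place and the count is per gene, so it does not check the genotype labels. Where the reads fell within *Mlx* was not tested. Spermatid, Sertoli and Leydig markers were detected in every library. The library labelled KO1 stood apart within its genotype, since its counts differed from those of KO2 and KO3 with a chi-square per degree of freedom of 7.91 and 7.92, while the values were 2.66 between KO2 and KO3 and 2.93 to 4.16 among the WT libraries.

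Integrin and laminin transcripts were mostly higher in MLX KO testes. Of the 37 members with enough counts to test, 20 were higher and 3 were lower past the threshold, which is 54.1% and 8.11% of them, while 24.8% of all tested genes were higher and 20.6% were lower. The 20 that rose had LFCs from 0.27 to 2.17, with 9 of them at an LFC of 1 or more. In each of the 20, every MLX KO library lay above every WT library. All 20 were therefore higher in 3 of 3 pairs, which adds no separate evidence. Without KO1, 22 were higher and 3 were lower. The median LFC of the 37 was 0.53, beside 0.03 over all tested genes. In 22 of the 37, every MLX KO library lay above every WT library in CPM, against 30.3% of all tested genes, and in 4 every MLX KO library lay below, against 25.9%. With scaling to the plain library sizes, without composition factors, the median of all genes moved to 0.16 and the split of all called genes moved from 54.7% higher to 80.8% higher, and the members called were then 23 higher and 0 lower.

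**Figure D1:**
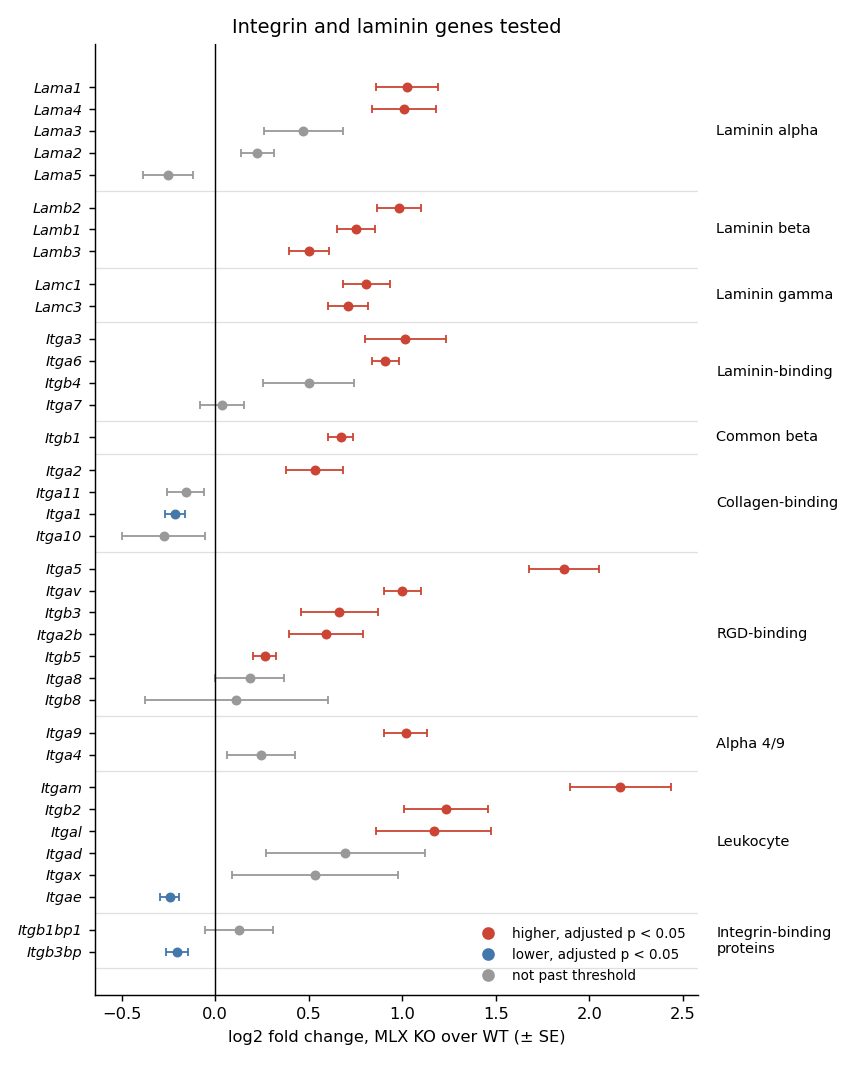
LFC of MLX KO over WT for tested integrin and laminin genes, grouped by role, with bars of 1 SE from edgeR's quasi-likelihood test (3 libraries per genotype). Red points are the 20 genes higher and blue points the 3 genes lower past the threshold, and the largest LFCs are those of *Itgam* at 2.17 and *Itga5* at 1.87.

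Whole testes hold several cell types, so fewer cells of a type and less RNA per cell cannot be told apart. Markers of several somatic and germ cell types moved with genotype beside every result given here. Among all tested genes, 24.8% were higher and 20.6% were lower. All 11 Sertoli markers were higher (median LFC 0.78, summed level 1229 to 1283 CPM in WT and 1834 to 2231 CPM in MLX KO), as were all 8 Leydig markers (median LFC 1.05, 876 to 904 CPM and 1871 to 2469 CPM) and all 8 macrophage markers with a row in the table (median LFC 1.21, 72.5 to 77.3 CPM and 138 to 147 CPM). Of 7 peritubular myoid markers 5 were higher and 1 was lower (median LFC 0.51, 313 to 373 CPM in WT and 313 to 329 CPM in MLX KO). The lower one, *Actg2*, made up most of the myoid sum, at 267 CPM in WT and 204 CPM in MLX KO (LFC -0.39). Of 8 endothelial markers 2 were higher (median LFC 0.42, 27.8 to 33.3 CPM and 41.5 to 44.7 CPM). All 9 elongating spermatid markers were lower (median LFC -0.55, 22882 to 23843 CPM in WT and 13572 to 16545 CPM in MLX KO), as were all 6 round spermatid markers (median LFC -0.23, 2356 to 2416 CPM and 1767 to 1923 CPM) and 6 of 8 spermatocyte markers (median LFC -0.19, 1646 to 1695 CPM and 1439 to 1509 CPM). Of 7 spermatogonial markers 2 were higher and 1 was lower (median LFC 0.17, 122 to 124 CPM and 136 to 147 CPM). The part of these shifts in the integrin and laminin values was not tested.

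Among the 11 laminin chains, 7 rose (63.6%) and 0 were lower, beside 24.8% higher and 20.6% lower over all tested genes. The summed laminin level was 149 ± 14.1 CPM (SD, n = 3) in WT and 236 ± 26.5 CPM in MLX KO testes, with library values of 147, 136 and 164 CPM in WT and 206, 246 and 257 CPM in MLX KO. In all 7 genes that rose, the library labelled KO1 was the lowest of the 3 MLX KO libraries, and it still lay above every WT library. Low KO1 values were not particular to laminins. Of the 13 integrin genes that rose, KO1 was lowest in 7 and highest in 3. The Leydig marker *Star* had 2936, 4894 and 4756 counts in KO1, KO2 and KO3, while the Sertoli marker *Amh* had 75, 65 and 71.

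The alpha chain carries the cell-binding domain of a laminin and so sets which receptors it engages. *Lama1* (chr17:67697127-67822645 in mm10, plus strand), the chain of the classical basement membrane laminin of embryos and epithelia, had 288, 178 and 262 counts in WT and 404, 544 and 632 counts in MLX KO testes. That is 13.8 ± 2.12 CPM in WT and 28.1 ± 6.53 CPM in MLX KO (SD, n = 3), an LFC of 1.02 (SE 0.16, adjusted p = 0.000569). The 2 groups did not overlap, and the LFC between littermates was 0.45 in pair 1, 1.40 in pair 2 and 1.17 in pair 3. *Lama4* (chr10:38965515-39110188, plus strand), a chain best known from blood vessel basement membranes, had 67, 49 and 72 counts in WT and 116, 156 and 133 counts in MLX KO, an LFC of 1.01 (SE 0.17, adjusted p = 0.000819), again without overlap. Both genes kept their call under all 15 alternatives tried.

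The other 3 alpha chains did not pass the threshold. *Lama2*, the chain of muscle and peripheral nerve basement membranes, was the most abundant alpha chain per length in both genotypes, with 520, 356 and 494 counts in WT and 549, 563 and 602 counts in MLX KO. The lowest MLX KO library, at 28.3 CPM, lay just above the highest WT library, at 27.9 CPM, and the LFC was 0.23 (SE 0.09, adjusted p = 0.0579). With the littermate pair as a block the adjusted p was 0.0389 in edgeR and 0.240 in DESeq2, and it was 0.0497 without WT3 and 0.0250 without KO1. Over the 15 alternatives it ranged from 0.0135 to 0.240, and 5 of them passed the threshold. *Lama3* had 50, 39 and 53 counts in WT and 52, 80 and 79 counts in MLX KO, so that KO1 lay within the WT range and the other two MLX KO libraries lay above it. Its LFC was 0.47 (SE 0.21, adjusted p = 0.0916), and 0.67 without KO1 (adjusted p = 0.0087), while the adjusted p ranged from 0.0087 to 0.378 over the alternatives. *Lama5*, the widely expressed chain of adult epithelial and vascular basement membranes, had 208, 188 and 272 counts in WT and 206, 178 and 220 counts in MLX KO, with an LFC of -0.25 (SE 0.13, adjusted p = 0.142), lower in 3 of 3 pairs and with overlapping groups.

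**Figure D2:**
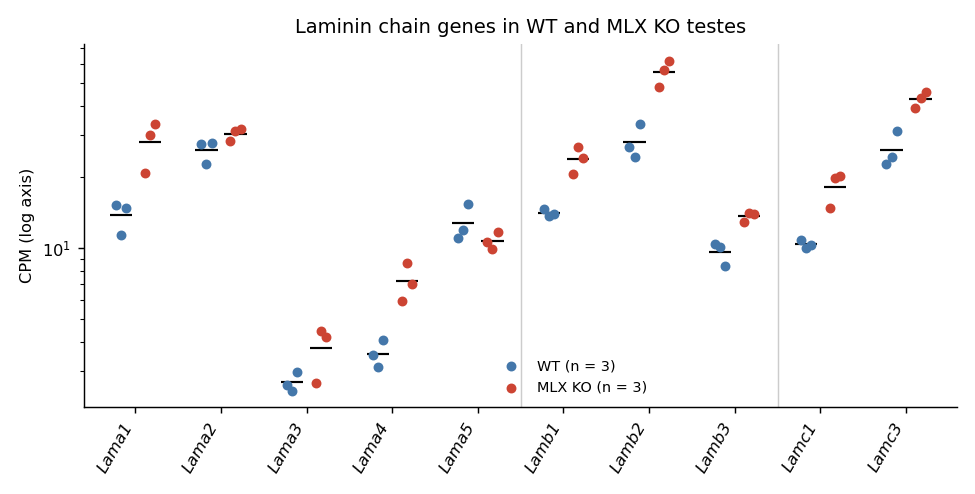
CPM of laminin chain genes on a log axis, in the 3 WT (blue) and 3 MLX KO (red) libraries, with black lines at the group means and vertical lines between alpha, beta and gamma chains. The *Lama1*, *Lama4*, *Lamb1*, *Lamb2*, *Lamb3*, *Lamc1* and *Lamc3* points of the genotypes are separate, whereas those of *Lama3* and *Lama5* overlap.

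The make-up of the alpha chains within each library was compared next. Shares were computed from counts per kilobase of the longest RefSeq transcript, and they do not depend on scaling between libraries. *Lama2* made up 43.9 ± 1.38% of alpha chain counts per kilobase in WT and 36.8 ± 2.83% in MLX KO (SD, n = 3), and *Lama5* 18.4 ± 2.54% and 11.1 ± 1.65%. *Lama1* took 25.7, 22.3 and 23.1% in the WT libraries, against 30.1, 34.8 and 37.5% in the MLX KO libraries. Its share was 10.4 percentage points higher in MLX KO, beside 4.21 points for *Lama4*, whose share was 9.69 ± 0.295% in WT and 13.9 ± 1.67% in MLX KO. In these 4 chains the groups did not overlap, and the exact permutation test on the group means gave a two-sided p = 0.1, the smallest p that 3 libraries against 3 allow. *Lama3* took 4.26 ± 0.201% and 4.16 ± 0.579% (exact permutation test, two-sided p = 0.9). With p-values that cannot go below 0.1, none of the shares could pass the threshold. In WT the order per length was *Lama2*, *Lama1*, *Lama5*, *Lama4* and *Lama3*, and in MLX KO it was *Lama2*, *Lama1*, *Lama4*, *Lama5* and *Lama3*. The CPM per kilobase of the first pair in MLX KO, 3.13 ± 0.193 for *Lama2* and 2.96 ± 0.687 for *Lama1*, differed by less than the spread between libraries.

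**Figure D3:**
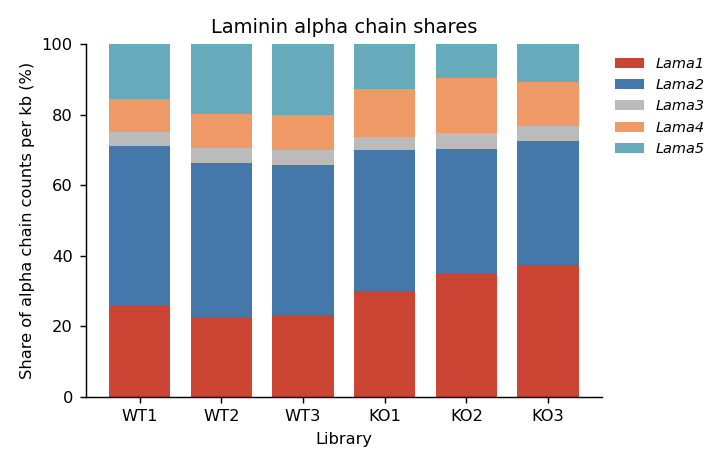
Share of each laminin alpha chain among alpha chain counts per kilobase of transcript, as a percentage, in each of the 6 libraries. The *Lama1* segment runs from 22.3 to 25.7% in the WT bars and from 30.1 to 37.5% in the MLX KO bars, and the *Lama5* segment is smaller in each MLX KO bar than in each WT bar.

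All 3 beta chains rose. *Lamb2* (chr9:108479847-108490530, plus strand), the beta chain of neuromuscular and kidney filter laminins, was the most abundant laminin chain of the table per length, with 507, 382 and 594 counts in WT and 934, 1027 and 1174 counts in MLX KO, an LFC of 0.98 (SE 0.12, adjusted p = 9.34e-05). *Lamb1* (chr12:31265146-31329644, plus strand), the beta chain that most commonly pairs with *Lamc1*, had 278, 214 and 246 counts in WT and 397, 482 and 454 counts in MLX KO, an LFC of 0.75 (SE 0.10, adjusted p = 0.000213). *Lamb3* (chr1:193294353-193343878, plus strand), a chain of the laminin at the spermatid adhesion and of epidermal anchoring, had 197, 158 and 149 counts in WT and 250, 255 and 262 counts in MLX KO, an LFC of 0.50 (SE 0.11, adjusted p = 0.00296). None of the 3 had overlapping groups, and the LFC of *Lamb3* was about as large as the median of all the members.

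Of the gamma chains, *Lamc1* and *Lamc3* rose. *Lamc3* (chr2:31887281-31949083, plus strand), the gamma chain of the spermatid adhesion, was measured with 429, 382 and 553 counts in WT against 757, 779 and 861 counts in MLX KO, with an LFC of 0.71 (SE 0.11, adjusted p = 0.000441). *Lamc1* (chr1:153218922-153332786, minus strand), the gamma chain of most laminins, had 204, 157 and 183 counts in WT and 285, 356 and 380 counts in MLX KO, an LFC of 0.81 (SE 0.12, adjusted p = 0.000423). The groups were separate in both genes. Of the chains of the spermatid adhesion, *Lamb3* and *Lamc3* thus passed the threshold and *Lama3* did not.

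Among the laminin receptors of the integrin family, *Itga3*, *Itga6* and the common subunit *Itgb1* rose. *Itgb1* (chr8:128685654-128733579, plus strand), which pairs with the laminin-, collagen- and many fibronectin-binding alpha subunits, had 1045, 862 and 1011 counts in WT and 1528, 1713 and 1740 counts in MLX KO testes. That is 55.6 ± 1.19 CPM and 88.6 ± 8.54 CPM (SD, n = 3), an LFC of 0.67 (SE 0.07, adjusted p = 3.59e-05). *Itga6* (chr2:71786886-71858427, plus strand), its partner in the main epithelial laminin receptor and on germline stem cells, had 310, 244 and 283 counts in WT and 563, 542 and 584 counts in MLX KO. Its LFC was 0.91 (SE 0.07, adjusted p = 7.98e-06), the smallest adjusted p of the 37 members. *Itga6* stayed within an SD of 0.414 CPM around 15.9 CPM in WT and of 0.937 CPM around 30.0 CPM in MLX KO, and its littermate differences were 0.83, 0.95 and 0.95 on the log2 scale.

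*Itga3*, an epithelial laminin receptor subunit, was present at a lower level, with 32, 35 and 45 counts in WT and 65, 87 and 92 counts in MLX KO. The groups were separate, with an LFC of 1.02 (SE 0.22, adjusted p = 0.00299). *Itga7*, the laminin receptor of muscle, had 282, 207 and 269 counts in WT and 307, 221 and 307 counts in MLX KO, with an LFC of 0.04 (SE 0.12, adjusted p = 0.822) and overlapping groups. *Itgb4*, the hemidesmosome subunit that pairs only with *Itga6*, had 21, 14 and 17 counts in WT and 28, 25 and 26 counts in MLX KO. Its groups did not overlap, but the LFC of 0.50 (SE 0.24) had an adjusted p of 0.115. The summed level of the 4 laminin-specific subunits was 33.5 ± 1.49 CPM in WT and 50.5 ± 2.60 CPM in MLX KO testes.

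The 4 collagen-binding alpha subunits, which also pair with *Itgb1*, gave 1 higher and 1 lower gene, or 25% each. These shares lay close to the 24.8% higher and 20.6% lower over all tested genes. *Itga1* (chr13:114958079-115101964, minus strand), the receptor subunit for basement membrane collagen, was lower, with 1258, 997 and 1090 counts in WT and 1083, 961 and 1051 counts in MLX KO. In CPM the 3 MLX KO libraries, 53.2 to 55.9, were below the 3 WT libraries, 61.5 to 66.3, and the LFC was -0.22 (SE 0.05, adjusted p = 0.00668). With library size alone the LFC was -0.08 (adjusted p = 0.265). *Pelo*, a gene of ribosome rescue that lies within an intron of *Itga1* on the same strand, had an LFC of -0.30 (SE 0.10, adjusted p = 0.0276).

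*Itga2* (chr13:114833081-114932100, minus strand), the other common collagen receptor subunit and 26 kb from *Itga1*, was higher, with 91, 71 and 99 counts in WT and 133, 113 and 160 counts in MLX KO. Its LFC was 0.53 (SE 0.15, adjusted p = 0.0146) and its groups did not overlap. The adjusted p was 0.0596 without WT2, 0.0712 without KO3 and 0.101 in DESeq2 with the replicate block. *Itga10* had 26 to 38 counts per library and an LFC of -0.28 (SE 0.22, adjusted p = 0.329), with overlapping groups. *Itga11* had 190, 154 and 172 counts in WT and 165, 158 and 174 counts in MLX KO, and its MLX KO libraries were all below the WT libraries in CPM, with an LFC of -0.16 (SE 0.10, adjusted p = 0.220). Summed over the 4 collagen-binding subunits, the level was 80.5 ± 2.20 CPM in WT and 72.6 ± 2.46 CPM in MLX KO, of which *Itga1* made up most.

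The subunits that recognize the RGD sequence of fibronectin, vitronectin and related proteins gave 5 higher genes of 7 tested (24.8% over all tested genes). *Itga5* (chr15:103344286-103366791, minus strand), the alpha subunit of the classical fibronectin receptor, had the largest LFC among them, with 30, 32 and 26 counts in WT and 102, 125 and 119 counts in MLX KO testes. The level was 1.69 ± 0.301 CPM in WT and 6.16 ± 0.836 CPM in MLX KO (SD, n = 3), an LFC of 1.87 (SE 0.19, adjusted p = 3.33e-05), and the LFC lay between 1.77 and 2.01 under all alternatives. *Itgav* (chr2:83722303-83806917, plus strand), the alpha subunit of the vitronectin receptors and of the integrins that activate latent TGF-beta, had 182, 144 and 184 counts in WT and 339, 366 and 390 counts in MLX KO. Its LFC was 1.00 (SE 0.10, adjusted p = 3.06e-05), and in both genes the groups were well apart.

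Of the beta subunits that pair with *Itgav*, leaving aside the common subunit *Itgb1* described above, *Itgb5* and *Itgb3* rose. *Itgb5* (chr16:33829665-33949338, plus strand), the most abundant of them per length, had 936, 808 and 962 counts in WT and 1122, 1169 and 1203 counts in MLX KO, with an LFC of 0.26 (SE 0.06, adjusted p = 0.00493), or 0.41 with library size alone, and separate groups. *Itgb3* (chr11:104608000-104670476, plus strand) had 43, 37 and 60 counts in WT and 79, 91 and 68 counts in MLX KO, an LFC of 0.66 (SE 0.21, adjusted p = 0.0216), and KO3 was close to WT3. Without WT1, WT2 or KO2 in turn its adjusted p was 0.0827, 0.0794 and 0.0911, and it was 0.0506 in DESeq2 and 0.138 in DESeq2 with the replicate block. *Itgb8* had 5 to 18 counts in a library, with an LFC of 0.11 (SE 0.49, adjusted p = 0.867), and *Itgb6*, an epithelial subunit, had 1 count in KO1 and in KO2 and none elsewhere, which was too few to test.

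*Itga2b* (chr11:102453297-102469883, minus strand), the platelet and megakaryocyte partner of *Itgb3*, had 35, 26 and 29 counts in WT and 49, 43 and 54 counts in MLX KO. Its LFC was 0.59 (SE 0.20, adjusted p = 0.0283) and the groups were separate, while leaving out WT1, WT2, WT3 or KO3 gave adjusted p-values of 0.0519, 0.0815, 0.0797 and 0.105, DESeq2 gave 0.157 and DESeq2 with the replicate block gave 0.305. *Itga8*, the receptor subunit for nephronectin, had 34 to 50 counts per library and an LFC of 0.18 (SE 0.18, adjusted p = 0.443), with overlapping groups.

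**Figure D4:**
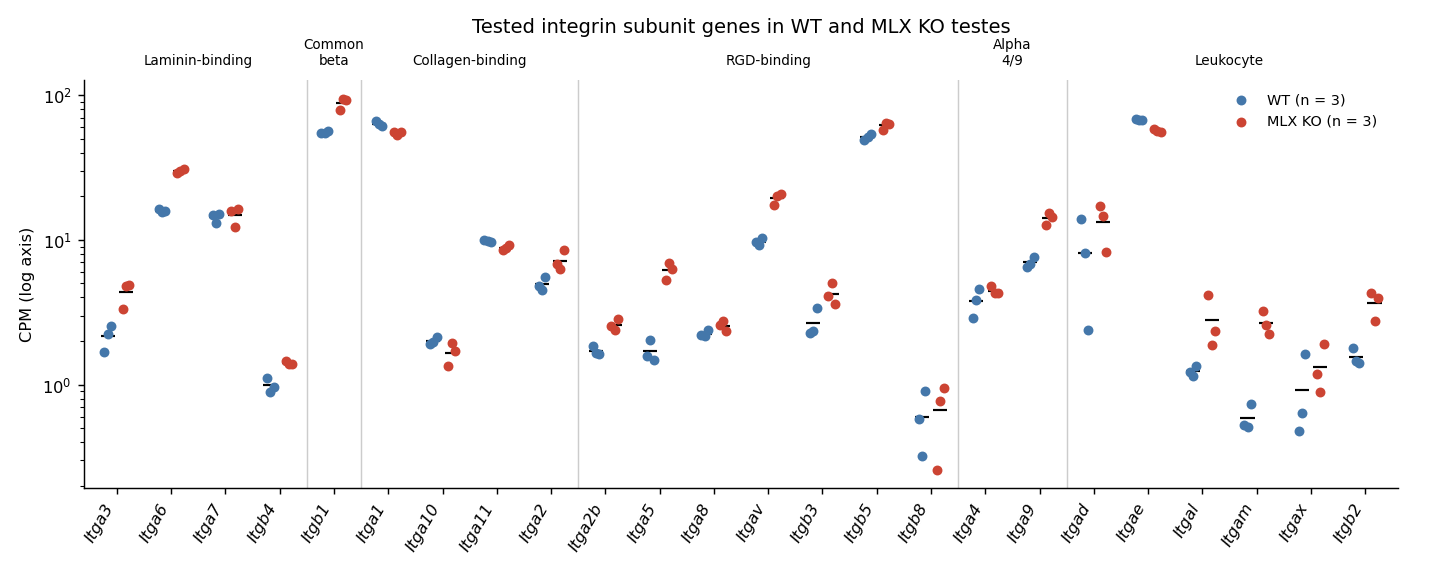
CPM of the 24 tested integrin subunit genes on a log axis, in the 3 WT (blue) and 3 MLX KO (red) libraries, with black lines at the group means, arranged by the ligand or cell type the subunits are known for. *Itga5* and *Itgam* show the widest gap between the genotypes, *Itga1* and *Itgae* have the red points slightly below the blue points, and the WT points of *Itgad* spread from 2.37 to 13.9 CPM.

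*Itga9* (chr9:118606709-118901003, plus strand), which with *Itgb1* binds tenascin, osteopontin and the cellular fibronectin isoform, had 124, 107 and 136 counts in WT and 247, 277 and 274 counts in MLX KO, an LFC of 1.02 (SE 0.11, adjusted p = 6.18e-05) without overlap. *Itga4*, the related subunit of leukocytes that binds VCAM1, had 55, 60 and 81 counts in WT and 93, 77 and 81 counts in MLX KO, with an LFC of 0.25 (SE 0.18, adjusted p = 0.291) and overlapping groups. *Itgb7*, its partner on gut-homing lymphocytes, had 3, 7 and 1 counts in WT and 38, 7 and 9 counts in MLX KO, and it did not pass the filter, with most of its MLX KO counts in KO1.

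Of the leukocyte integrins, *Itgal*, *Itgam* and their common beta subunit *Itgb2* rose. *Itgb2* (chr10:77530329-77565708, plus strand) had 34, 23 and 25 counts in WT and 83, 50 and 75 counts in MLX KO, an LFC of 1.23 (SE 0.22, adjusted p = 0.00123). *Itgam* (chr7:128062640-128118491, plus strand), the complement receptor subunit of macrophages and neutrophils also known as CD11b, had 10, 8 and 13 counts in WT and 62, 47 and 42 counts in MLX KO. At 0.590 ± 0.125 CPM and 2.67 ± 0.492 CPM (SD, n = 3), its LFC of 2.17 (SE 0.27, adjusted p = 0.000122) was the largest of all members. *Itgal* (chr7:127296139-127335137, plus strand), the lymphocyte subunit that binds ICAM1, had 23, 18 and 24 counts in WT and 80, 34 and 44 counts in MLX KO, an LFC of 1.17 (SE 0.31, adjusted p = 0.0095). KO1 was the highest library of *Itgal*, and the LFC was 0.77 without KO1 (adjusted p = 0.0246) and 0.74 without both WT1 and KO1 (adjusted p = 0.0540). None of the 3 genes had overlapping groups. The macrophage markers were all higher, with LFCs from 0.42 for *Mrc1* to 1.60 for *C1qa* and a median of 1.21. The LFCs of *Itgb2* and *Itgal* lay near that median, and that of *Itgam* lay above every macrophage marker. Of the leukocyte subunits described below, *Itgad* (0.70) and *Itgax* (0.53) lay in the lower part of the marker range, and *Itgae* (-0.24) lay below it. T and B lymphocyte markers were near the detection limit, with an LFC of 0.57 for *Cd4* (adjusted p = 0.193) and a summed level over the list of 2.43 to 4.34 CPM in WT and 3.21 to 5.88 CPM in MLX KO.

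*Itgax*, *Itgam* and *Itgad* lie next to one another on chromosome 7, with 11 kb between *Itgam* and *Itgax* and 23.3 kb between *Itgax* and *Itgad*. *Itgax*, a subunit of dendritic cells and macrophages, had 9, 10 and 29 counts in WT and 23, 16 and 36 counts in MLX KO, so that WT3 lay within the MLX KO range. Its LFC was 0.53 (SE 0.44, adjusted p = 0.349), and 1.26 without WT3 (adjusted p = 0.0382), while the adjusted p reached 0.792 over the alternatives. *Itgad*, a subunit of splenic and tissue macrophages, varied widely within both genotypes, with 263, 128 and 42 counts in WT and 330, 263 and 155 counts in MLX KO. It was higher in MLX KO in 3 of 3 pairs, by 0.29, 0.83 and 1.75 on the log2 scale, while the groups overlapped, and the LFC was 0.70 (SE 0.43, adjusted p = 0.204). With the littermate pair as a block the LFC was 0.81 in edgeR (adjusted p = 0.00214) and 0.89 in DESeq2 (adjusted p = 0.00189), and without WT1 it was 1.36 (adjusted p = 0.0237). The adjusted p of *Itgad* passed the threshold in 4 of 15 alternatives and reached 0.4995 in the others. *Itgad* shares 309, 70 and 233 exon bases with the antisense genes *4931431B13Rik*, *Cox6a2* and *Gm39091*, and its reads cannot be told apart from theirs if counting ignored strand, which the sources used here do not give. *Itgb2l*, a relative of *Itgb2*, had 1 count, in KO3.

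*Itgae* (chr11:73090505-73147449, plus strand), known from intraepithelial lymphocytes, where it binds E-cadherin, was the most abundant integrin subunit of the table per length in WT testes, at 17.6 ± 0.111 CPM per kilobase (SD, n = 3), and it was lower in MLX KO. It had 1291, 1062 and 1192 counts in WT and 1140, 1022 and 1056 counts in MLX KO, an LFC of -0.24 (SE 0.05, adjusted p = 0.00207) with separate groups. With library size alone the LFC was -0.11 (adjusted p = 0.0845). The germ cell kinase gene haspin, listed as *Gsg2*, lies within *Itgae* on the opposite strand and shares 20 exon bases with it. *Gsg2* had 1171 ± 15.3 CPM in WT and 974 ± 74.4 CPM in MLX KO, an LFC of -0.27 (SE 0.06, adjusted p = 0.00381). Whether reads of *Gsg2* were counted for *Itgae* was not tested.

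The 3 integrin-binding proteins did not rise. *Itgb3bp* (chr4:99767406-99829215, minus strand), also known as a centromere protein, had the highest level per length of all 41 genes and was lower, with 1357, 1048 and 1235 counts in WT and 1236, 1080 and 1075 counts in MLX KO, an LFC of -0.20 (SE 0.06, adjusted p = 0.0129). The adjusted p was 0.0541 without WT1, 0.0686 without KO3 and 0.338 with library size alone. *Itgb1bp1*, which binds the cytoplasmic tail of *Itgb1* and competes with talin, had 1208, 1663 and 1719 counts in WT and 2402, 1467 and 1598 counts in MLX KO. WT1 was the lowest and KO1 the highest of the 6 libraries, and the LFC was 0.13 (SE 0.18, adjusted p = 0.603), against -0.07 without WT1 (adjusted p = 0.741), -0.09 without KO1 (adjusted p = 0.658) and -0.29 without both (adjusted p = 0.00175). It shares 370 exon bases with *Asap2* on the opposite strand, which had 39 to 72 counts per library. *Itgb1bp2*, a muscle protein, had 1 count in WT1 and 1 in KO2.

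Levels of integrin subunits can be compared only per length. In WT testes the highest integrin subunits were *Itgae* (17.6 ± 0.111 CPM per kilobase, SD, n = 3), *Itgb5* (15.7 ± 0.750), *Itgb1* (13.3 ± 0.285) and *Itga1* (10.6 ± 0.409), and in MLX KO testes *Itgb1* (21.1 ± 2.04), *Itgb5* (18.9 ± 1.12), *Itgae* (14.8 ± 0.396) and *Itga1* (9.17 ± 0.250). *Itgb1* and *Itgb5* in MLX KO differed by about the spread between libraries. Next came *Itga7* in WT (3.57 ± 0.268) and *Itga6* in MLX KO (4.98 ± 0.156).

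Promoter sequences, from 250 bases before to 50 bases after the transcription start, were read from RefSeq (GRCm38.p6) for 26 of the 41 members and searched on both strands for the E-box CACGTG, a palindrome and the sequence that dimers of the MYC network bind. None of the 26 held it. The share was 8.09% among the 27025 genes with a promoter and 11.1% among the 11287 of them that were tested here. At such shares few of 26 genes would hold it, and the difference was not tested. Sites outside this window were not searched. Members without an entry were *Itga6*, *Itga7*, *Itgad*, *Itgae*, *Itgal*, *Itgb1bp2*, *Itgb2*, *Itgb3*, *Itgb4*, *Lama1*, *Lama3*, *Lama4*, *Lamc1* and *Lamc3*. Binding of MLX or MAX was not analysed here.

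Genes that work with the integrins and laminins were read from 4 lists. Of 20 basement membrane partners, 14 were higher and 1 was lower in MLX KO, with a median LFC of 0.42. Over all tested genes, 24.8% were higher and 20.6% were lower, with a median of 0.03. The largest increases were those of *Ntn4*, a netrin that binds laminin gamma chains (102, 82 and 106 counts in WT, 292, 259 and 267 counts in MLX KO, LFC 1.39, SE 0.10, adjusted p = 5.98e-06), *Col4a1*, a chain of the network collagen of basement membranes (LFC 1.37, SE 0.10), and *Col18a1*, a basement membrane collagen that carries endostatin (LFC 1.24, SE 0.08). The other nidogen gene of the list was higher past the threshold. *Nid1*, a nidogen that links laminin gamma chains to type IV collagen, was the 1 lower gene, with 593, 433 and 514 counts in WT and 505, 427 and 456 counts in MLX KO (LFC -0.25, SE 0.08, adjusted p = 0.0187). Its adjusted p was 0.0841 without WT1, 0.0789 without KO2, 0.0690 without KO3, 0.0758 in DESeq2 with the replicate block and 0.255 with library size alone.

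Of 17 tested laminin receptors outside the integrin family and members of the dystrophin-glycoprotein complex, 9 were higher and 2 were lower, with a median LFC of 0.33. The complex ties laminin to actin through dystroglycan. The shares over all tested genes were 24.8% higher and 20.6% lower. *Dmd*, which encodes dystrophin (LFC 1.02, SE 0.15, adjusted p = 0.000319), and the syndecans *Sdc4* (LFC 0.88, SE 0.07) and *Sdc1* (LFC 0.85, SE 0.11) rose most. *Dtnb*, a dystrobrevin (LFC -0.29, SE 0.05, adjusted p = 0.00153, or -0.15 with library size alone), and *Sgcb*, a sarcoglycan (LFC -0.19, SE 0.06, adjusted p = 0.0305), were lower. The other dystrobrevin gene of the list was higher past the threshold. The adjusted p of *Sgcb* was 0.0957, 0.0761, 0.0746 and 0.143 without WT1, WT2, KO2 and KO3, 0.0879 in DESeq2 with the replicate block and 0.536 with library size alone.

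Of 19 tested integrin ligands other than laminins and collagens, 10 were higher and 1 was lower (24.8% and 20.6% over all tested genes). The median LFC was 0.68. *Spp1*, encoding osteopontin, had 16, 13 and 10 counts in WT and 39, 53 and 53 counts in MLX KO (LFC 1.78, SE 0.27, adjusted p = 0.000387). *Icam1*, the counter-receptor of the *Itgb2* integrins, had 38, 27 and 41 counts in WT and 121, 103 and 131 counts in MLX KO (LFC 1.64, SE 0.17, adjusted p = 3.77e-05). *Icam2* had 0, 3 and 9 counts in WT and 18, 11 and 15 counts in MLX KO (LFC 1.74, SE 0.62, adjusted p = 0.0399). Leaving out WT1, WT2, KO1, KO2 or KO3 gave *Icam2* adjusted p-values of 0.0952, 0.112, 0.0848, 0.0551 and 0.0833, and DESeq2 gave 0.0691 without and 0.0820 with the replicate block. Its LFC was 1.11 without WT1, 3.07 without WT3 and 0.96 without both WT1 and KO1 (adjusted p = 0.159). *Postn*, which encodes the matrix protein periostin, was the lower gene, with 111, 90 and 111 counts in WT and 65, 70 and 67 counts in MLX KO (LFC -0.73, SE 0.14, adjusted p = 0.00161).

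Of 26 tested cytoplasmic adhesion proteins, 13 were higher and 4 were lower (24.8% and 20.6% over all tested genes). The median LFC was 0.22. The increases were led by *Tns3*, a tensin of fibrillar adhesions (LFC 1.35, SE 0.11, adjusted p = 7.68e-06), *Parvb*, a parvin of the integrin-linked kinase complex (LFC 0.99, SE 0.13), and *Rsu1*, which binds that complex (LFC 0.91, SE 0.14). Those lower included the actin regulator *Vasp* (LFC -0.46, SE 0.07, adjusted p = 0.000293) and *Tln2*, a talin that activates integrins (LFC -0.28, SE 0.05, adjusted p = 0.000955, or -0.14 with library size alone). The other talin gene of the list was higher past the threshold.

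**Figure D5:**
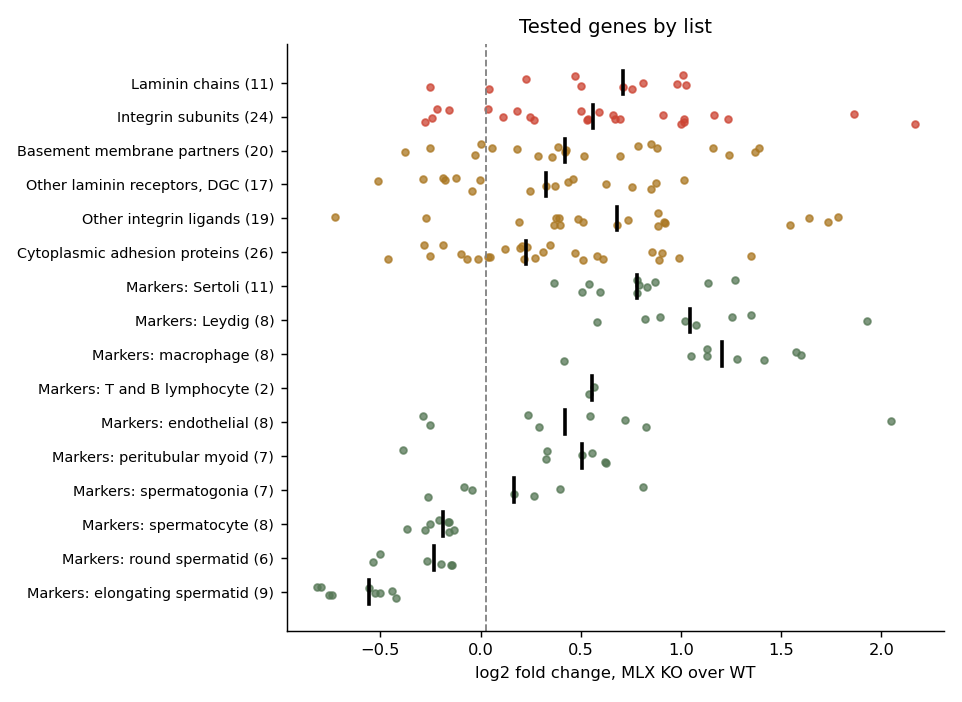
LFC of MLX KO over WT for each tested gene of the laminin chains and integrin subunits (red), the 4 partner lists (brown) and the cell type marker lists (green), with the number of tested genes in parentheses, a black line at each list's median and a dashed line at 0.03, the median of all tested genes. Medians of the Sertoli, Leydig and macrophage markers lie at 0.78, 1.05 and 1.21, and those of the spermatid lists lie below 0.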

How the data were processed

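RNA-seq was performed by the authors on testes of 3 littermate pairs (WT and MLX KO), with paired-end reads aligned to mm10 with TopHat. The deposited table gives a raw read count per gene symbol and library; the counting tool, strand setting and annotation are not given in the sources used here. It also holds columns of the authors' own comparison, deposited as a mean signal, a log2 fold change, its error and test score, and a p-value with its adjusted value, none of which were used. ChIP-Seq samples were not analysed here.

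Of 17933 rows, 2 repeats were dropped, leaving 17931 symbols. Counts were filtered with filterByExpr (minimum 10), scaled with TMM and tested with edgeR 4.0.16 in R 4.3.3, by its quasi-likelihood test, two-sided, in a model of genotype alone, with Benjamini-Hochberg adjustment over 14640 genes. SEs are the LFC divided by the root of the quasi-likelihood F. Log2 differences within pairs used log2 CPM with a prior count of 2. The study states age-matched littermate pairs, and the sample titles number them. Deviations from the group means correlated at 0.145, 0.0363 and 0.121 within the pairs 1, 2 and 3, and at no more than 0.0330 for libraries of different pairs. The pair entered as a block in alternative fits with edgeR and DESeq2 1.42.0. Libraries of 1 genotype differed by more than sampling noise, so none were duplicates. Lengths, coordinates and overlaps came from RefSeq (GRCm38.p6). Of the symbols, 17248 matched a current and 656 an older RefSeq symbol, and 27 did not match. The code was tested on simulated data with known changes.

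The rule named every member of the name pattern, and from each partner list the 3 largest increases and 3 largest decreases past the threshold; a few genes are not reported here by name. Members, lists and tests were chosen with earlier results of these data known. *Adgre1* and *Tns2* have no row in the table, and *Sgcd*, *Sntb1*, *Madcam1*, *Fermt1* and 5 lymphocyte markers did not pass the filter.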

Additional observations from a re-analysis of the deposited data

How the results depend on the processing

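The count of integrin and laminin genes higher in MLX KO was 20, and between 17 and 22 when each library was left out in turn; the count of those lower was 3, and between 2 and 3. Without WT1 and KO1 together, an alternative chosen after seeing the data, the counts were 20 and 4. With the replicate block they were 22 and 3 in edgeR and 18 and 3 in DESeq2, and beside the calls given in the report (*Lama2*, *Itgad*, *Itga2*, *Itga2b*, *Itgb3*, *Nid1*, *Sgcb*, *Icam2*) the block changed no other call of a named gene. Of 539 values of single members under alternatives, 494 kept their direction and side of the threshold, 22 lost and 14 gained a call, and 9 changed sign, none of them in a gene past the threshold in the main comparison. Library size alone gave 0 lower members, 0 lower basement membrane partners, 1 lower non-integrin receptor, 2 lower cytoplasmic adhesion proteins and 1268 lower genes of all (3015 in the main comparison). DESeq2 with the replicate block gave 2249 higher genes of all (3634), 0 lower basement membrane partners and 1 lower non-integrin receptor. Leaving out single libraries gave 0 to 1 lower basement membrane partners and 1 to 3 lower non-integrin receptors. Members not past the threshold whose sign changed had LFCs, over the single libraries left out, from -0.031 to 0.16 for *Itga7*, -0.090 to 0.27 for *Itgb1bp1* and -0.25 to 0.51 for *Itgb8*. Without WT1 and KO1 the LFC was -0.29 for *Itgb1bp1*. The difference in the *Lama3* share, -0.106 percentage points, was 0.0319 without length correction and between -0.363 and 0.207 with single libraries left out; the other 4 alpha chains kept their direction. The cause of these changes was not tested.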
